A study of Homo sapiens with 6 samples.

Results

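Small nucleolar RNAs (snoRNAs) and small Cajal body RNAs (scaRNAs) were examined in Kasumi-1 cells, an acute myeloid leukemia line carrying the AML1-ETO fusion. Genes whose GENCODE 29 name begins with SNORD, SNORA or SCARNA were members if their FPKM (fragments scaled to exon length and to library depth) was above 0 in at least 3 of the 6 libraries or in all 3 libraries of a group. By this rule 79 genes were chosen on their own FPKM, out of 450 names in the annotation and 133 with a row in the table of 29810 genes. There were 33 SNORD genes, 42 SNORA genes and 4 SCARNA genes, on 18 chromosomes. Their detection and level are therefore a description and not a finding.

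The 3 control libraries came from cells given solvent only, and the 3 I3 libraries from cells given 0.25 µM I3, a histone deacetylase inhibitor, for 48 h. One figure legend of the study gives a longer time for the sequenced cells, and the name of the deposited table writes the compound as I13. The time and name are given here as in the labels. The labels do not say whether the libraries of a group came from separate cultures, so each p-value measures only the spread between these libraries. Kasumi-1 is a single cell line. Total RNA was made into libraries with a stranded kit that selects polyadenylated mRNA. In bulk RNA, fewer cells of a type and less RNA per cell cannot be told apart.

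snoRNAs guide the chemical modification of other RNAs in the nucleolus. C/D box snoRNAs (SNORD genes) pair with ribosomal RNA and direct ribose methylation by fibrillarin (FBL), while H/ACA box snoRNAs (SNORA genes) direct pseudouridine formation by dyskerin (DKC1). A few, such as U3 and U17, act in the cleavage of the ribosomal RNA precursor instead. scaRNAs serve the spliceosomal RNAs in Cajal bodies. In human cells most of these RNAs are cut out of introns of host genes, many of which encode ribosomal proteins or are noncoding snoRNA host genes (SNHG). A mature snoRNA ends without a poly(A) tail, so a library of polyadenylated RNA is not designed to hold it, and a read within an intron does not separate the mature RNA from the unspliced host transcript.

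Reads were rebuilt from FPKM, exon length and the worth of a single read in each library. The 6 libraries held 17500320 to 18193373 reads, and 1 read on a gene of 100 nt was worth 0.55 to 0.571 FPKM. The FPKM of all 79 members were whole reads. MPO, a myeloid granule enzyme (8197 ± 412 FPKM in control libraries, SD, n = 3), KIT, CD34 and RUNX1T1, which mark this line, were present in every library, and the T cell marker CD3E was at most 0.179 FPKM in any library. EPCAM, an epithelial marker, was present at 29.7 ± 1.26 FPKM in control and 30.3 ± 1.88 FPKM in I3 libraries (SD, n = 3). Its part in the results was not tested.

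The sequences of the members with the most reads, of a pair and a family of copies, and of 2 members with differing values are shown, because they carry the boxes by which the classes are known and the copies that reads have to tell apart. They are the sense strand of GRCh38 at the GENCODE 29 positions: SNORD17 at chr20:17962710-17962946 (minus), SNORA73B at chr1:28508559-28508762 (plus), SNORD14A at chr11:17074654-17074744 (minus), SNORA26 at chr4:52713249-52713370 (plus), SNORD62B at chr9:131490486-131490571 (plus), SNORD62A at chr9:131485665-131485750 (plus), SNORA71C at chr20:38429670-38429803 (minus), SNORA71A at chr20:38427309-38427442 (minus), SNORD101 at chr6:132815307-132815379 (plus) and SNORD88A at chr19:50799442-50799532 (minus). Capitals mark the C box (NTGATGA, in the first 25 bases) and the D box (CTGA, in the last 15 bases) of SNORD genes. In SNORA genes they mark the first match to the H box letters (ANANNA) near the middle, and the ACA box near the end. Matches to the H box letters were not counted across genes, so the stretch marked may not be the H box itself.
SNORD17: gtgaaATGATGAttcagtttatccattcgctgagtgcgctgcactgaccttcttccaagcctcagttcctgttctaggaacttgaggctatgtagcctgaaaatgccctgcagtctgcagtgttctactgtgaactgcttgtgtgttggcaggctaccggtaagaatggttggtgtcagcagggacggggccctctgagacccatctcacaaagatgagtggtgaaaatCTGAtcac
SNORA73B: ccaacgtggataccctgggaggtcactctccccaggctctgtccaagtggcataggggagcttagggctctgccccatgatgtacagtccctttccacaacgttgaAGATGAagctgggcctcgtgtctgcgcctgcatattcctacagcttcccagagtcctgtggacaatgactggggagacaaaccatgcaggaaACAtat
SNORD14A: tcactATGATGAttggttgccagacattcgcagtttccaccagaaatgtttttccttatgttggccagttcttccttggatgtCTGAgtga
SNORA26: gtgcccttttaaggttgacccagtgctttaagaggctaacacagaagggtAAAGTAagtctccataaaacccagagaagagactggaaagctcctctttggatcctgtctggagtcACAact
SNORD62B: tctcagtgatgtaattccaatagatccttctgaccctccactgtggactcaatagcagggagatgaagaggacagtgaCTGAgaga
SNORD62A: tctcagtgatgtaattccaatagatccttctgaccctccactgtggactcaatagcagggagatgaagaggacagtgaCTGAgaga
SNORA71C: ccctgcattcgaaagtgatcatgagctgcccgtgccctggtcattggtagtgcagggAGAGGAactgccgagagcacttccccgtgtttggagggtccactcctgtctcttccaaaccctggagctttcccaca
SNORA71A: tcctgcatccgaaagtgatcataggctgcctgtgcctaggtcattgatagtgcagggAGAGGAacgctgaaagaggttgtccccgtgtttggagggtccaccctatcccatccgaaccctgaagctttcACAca
SNORD101: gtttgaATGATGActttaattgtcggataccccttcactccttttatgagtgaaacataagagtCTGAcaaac
SNORD88A: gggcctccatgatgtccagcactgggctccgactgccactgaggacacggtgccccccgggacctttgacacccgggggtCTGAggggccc

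On the sense strand, both the C and the D box were found in 21 of 33 SNORD members (63.6%), against 66.2% of all 278 annotated SNORD genes and 0% of the 147 SNORA genes. The ACA box was found in 36 of 42 SNORA members (85.7%), against 83.7% of all SNORA genes and 3.24% of all SNORD genes. Its letters also matched in 5 of the 33 SNORD members (15.2%). SNORD62B, SNORD62A and SNORD88A lacked a C box with these letters in this window, and in SNORA71C the ACA letters stood at the very end. The members had a median length of 86 nt (SNORD) and 135 nt (SNORA), and a median GC content of 47.3%.

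The members were read sparsely. Together they held 2460 reads over the 6 libraries, with a median of 13 reads per member and a maximum of 288. The top 3 members held 26.6% of these reads and the top 10 held 50.1%. Of the 79 members, 35 had reads in all 6 libraries, 32 had at least 20 reads in total, and 27 had under 10. The 22 members with reads in exactly 3 libraries had 3 to 10 reads, and the 17 genes just outside the rule, with reads in 2 libraries, had 2 to 8. A further 15 genes had reads in 1 library and 22 were listed at 0.

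SNORD17, a C/D box snoRNA that guides methylation of 28S ribosomal RNA, had the most reads. Its controls held 51, 43 and 46 reads and its I3 libraries 40, 54 and 54, so the groups overlapped, and its mean was 11.2 ± 0.996 FPKM in control and 11.6 ± 1.85 FPKM in I3 (SD, n = 3). SNORA73B, a copy of the U17 RNA that acts in the processing of the 18S precursor, followed with 38, 28 and 33 reads in control and 47, 44 and 47 in I3. Here the I3 libraries lay above all controls, with 9.17 ± 1.42 against 12.6 ± 0.412 FPKM (SD, n = 3). SNORA71B, one of 4 copies of an 18S pseudouridine guide, held 20, 25 and 25 reads in control and 22, 19 and 19 in I3. SNORD14A, the U14 RNA that guides methylation of 18S and acts in its processing, held 28, 15 and 9 reads in control and 17, 19 and 17 in I3. Its controls spread widely while its I3 libraries were close together.

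SNORD94, a guide for the spliceosomal RNA U6, held 14, 18 and 14 reads in control and 18, 13 and 17 in I3. SNORA26, a guide for 28S, held 8, 15 and 9 reads in control and 26, 17 and 17 in I3. All 3 I3 libraries of SNORA26 were above all 3 controls. SNORD62B, a guide for 18S methylation, held 8, 9 and 20 reads in control and 12, 12 and 15 in I3. SNORA11F held 18, 8 and 15 reads in control and 12, 16 and 6 in I3. SNORA71C held 8, 18 and 15 reads in control and 3, 12 and 19 in I3, so its I3 libraries spanned a wider range than its controls. SNORA33, a guide for 28S, held 7, 10 and 11 reads in control and 13, 15 and 5 in I3. For each of these except SNORA26 the groups overlapped.

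**Figure D1:**
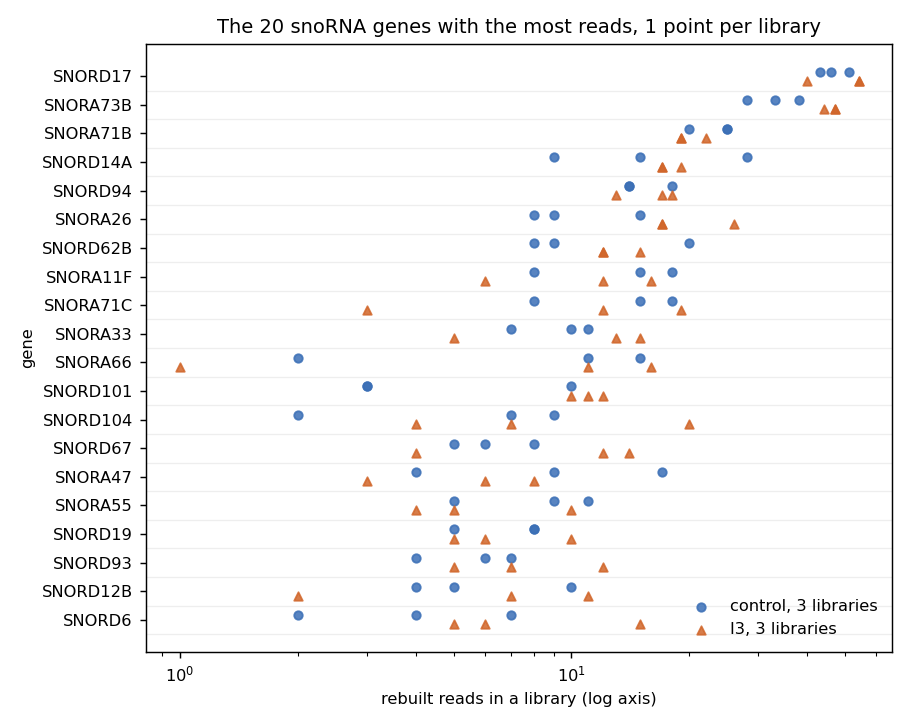
Rebuilt reads in each library (x axis, log scale) for the 20 members with the most reads (y axis), with circles for the 3 control libraries and triangles for the 3 I3 libraries. SNORD17 lies between 40 and 54 reads in every library, and the 2 groups are separate only for SNORA73B and SNORA26.

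Some members varied from library to library within a group by more than counting. Among the 32 members with at least 20 reads, the chi-square of reads within groups, divided by its degrees of freedom (about 1 if counting error were all), had a median of 1.57 and a mean of 1.94. Across 5384 genes with reads in the same range it had a median of 1.71 and a mean of 2.11. The members thus spread about as other genes of their depth did. The value exceeded 3 in 6 members. SNORA66, which lies in the ribosomal protein gene RPL5, held 15, 11 and 2 reads in control and 1, 11 and 16 in I3. SNORD104 held 2, 7 and 9 reads in control and 20, 7 and 4 in I3. Both were chosen for mention after their values were seen.

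Copies with the same or a related sequence had unequal reads. SNORD62A and SNORD62B, both in introns of PRRC2B, are identical over all 86 nt, yet held 13 and 76 reads. How reads were split between them is uncertain, and their sum was 11, 11 and 22 reads in control and 14, 13 and 18 in I3. SNORA71A, SNORA71B, SNORA71C and SNORA71D, all in SNHG17, held 35, 130, 75 and 9 reads, and SNORA71C was 83.1% identical to SNORA71A and 86.6% to SNORA71D. SNORA71B was counted over an annotated 272 nt, against 134 nt for SNORA71A, SNORA71C and SNORA71D, and its identity to them was not measured. The summed reads of the SNORA71 copies were 33, 51 and 45 in control and 30, 45 and 45 in I3, so the groups overlapped. SNORA22, SNORA22B and SNORA22C, in CCT6P1, CCT6A and CCT6P3, were 92.8% to 98.5% identical and held 21, 12 and 7 reads. SNORD3A and SNORD3B-1, genes of U3, were 99.5% identical over 217 nt and held 18 and 12 reads over their longer annotated genes. How reads were split in the SNORA22, SNORA71 and SNORD3 families was not tested.

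The comparison of I3 with control asked whether the inhibitor changed the level of these RNAs. After the filter on low values (mean FPKM of at least 0.5), 60 members were tested within 12960 genes (30 SNORD, 29 SNORA and 1 SCARNA). No member reached both thresholds, 0.05 for the adjusted p (limma, Benjamini-Hochberg) and 0.58 for the size of the log2 fold change, and 0 of all genes tested passed (0%). At an unadjusted p under 0.05, with no limit on fold, limma gave 8 of the 60 members, beside 4.93% of all genes tested. The smallest adjusted p of a member was 0.309 (SNORD88A). voom on rebuilt reads also called none of the 10 members it could test. A p that misses the threshold does not show equal levels.

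With an unadjusted p under 0.05 and the same fold, 7 members were higher in I3 (11.7% of 60), against 0.756% of all genes tested. None was lower, against 0.648%. Of the 60 members, 9 reached 0.5 FPKM in I3 but not in control, 4 of the 7 among them (SNORA22B, SNORA58, SNORD88A and SNORD127), and 2 reached it in control but not in I3. Those 9 passed the filter only through I3, so their mean had to be higher there, and for the other 2 the same held in control. SNORD88A and SNORD127, at 0 in all controls, also met the detection rule through I3 alone. All 7 were shorter than 200 nt. Among all tested genes under 200 nt, members included, 41 of 418 were higher by the same measure (9.81%) and 19 were lower (4.55%), so the members' share higher was near that of short genes. Of the 361 short genes that were not members, 34 were higher (9.42%). The groups did not overlap, with I3 higher, for 5 members (8.33%), against 5.06% of all genes. SNORA22B, SNORD88A and SNORD127, which passed the filter only through I3, were among the 5. With I3 lower the groups did not overlap for 2 members (3.33%), against 4.64%, and SNORA74D among them passed the filter only through control.

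The median log2 fold change of the 60 members was 0.13, beside 0.01 for all genes tested and 0.13 for all tested genes under 200 nt. It was above 0 for 37 members (61.7%), beside 54.2% of all genes and 56.2% of the short genes. A fold past 0.58 in size was seen in 22 members (36.7%), beside 2.77% of all genes and 41.6% of the short genes.

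**Figure D2:**
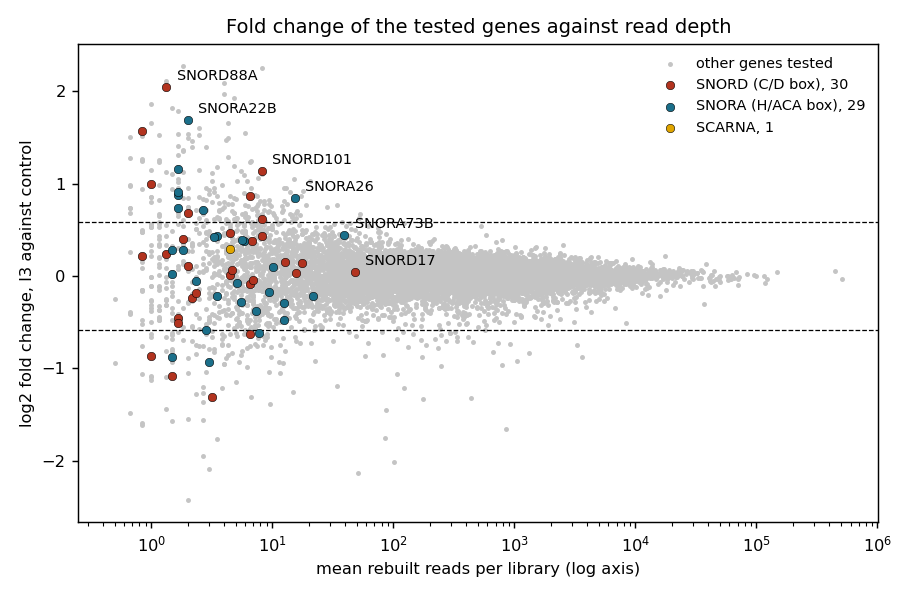
Log2 fold change of I3 against control on the log2(FPKM + 0.5) scale (y axis) against mean rebuilt reads per library (x axis, log scale) for the 12960 tested genes (grey), with the 30 SNORD, 29 SNORA and 1 SCARNA member coloured; dashed lines mark 0.58 in size. The members sit at the left, where grey points spread widest, and only SNORD17 and SNORA73B among those labelled have over 30 reads per library.

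SNORA73B and SNORA26 were the members with at least 20 reads (32 in all) whose groups did not overlap. With I3 higher, the groups did not overlap for 5.06% of all genes tested. For SNORA73B the log2 fold change was 0.45 ± 0.11 (SE, adjusted p = 0.700, limma), higher in 3 of 3 I3 libraries, and the ratio of RPM (reads scaled to the library total) was 1.37 (95% counting interval, exact, 1.05 to 1.79). For SNORA26 it was 0.84 ± 0.24 (SE, adjusted p = 0.812, limma), with a ratio of 1.85 (1.18 to 2.93). Counting intervals cover counting error only, since reads were not marked by molecule. Both members stand here because their groups did not overlap, so intervals from the same reads tend to exclude 1. They are a description and not a test.

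SNORD101, which lies in an intron of RPS12, held 10, 3 and 3 reads in control and 11, 10 and 12 in I3. Control 1 was thus at the level of the I3 libraries and the other controls were below them. Its log2 fold change was 1.14 ± 0.39 (SE, adjusted p = 0.932, limma), and without control 1 it became 1.65 with an adjusted p of 0.0118, the only call of a member in 19 refits. How many of the 12913 genes tested in that refit were called is not given here. Over all genes with enough reads, the chi-square per degree of freedom was 14.8 and 10.4 between control 1 and controls 2 and 3. Between controls 2 and 3 it was 4.48. The part of this difference in the call was not tested. The 3 members within RPS12 (SNORA33, SNORD100 and SNORD101) summed to 23, 15 and 17 reads in control and 32, 28 and 22 in I3. That sum includes SNORD101 itself, and its groups overlapped.

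The smallest p-values belonged to members with very few reads. For SNORD88A, SNORD127, SNORA22B and SNORA58 the direction was set by how members were chosen and filtered. SNORD88A held no read in the 3 controls and 4, 2 and 2 in I3 (adjusted p = 0.309, limma). The counting interval of its ratio of I3 to control began at 1.68 and had no upper end. SNORD127 held none in control and 3, 1 and 1 in I3 (adjusted p = 0.575, limma). Its counting interval began at 0.902, so counting error alone allowed a ratio below 1. SNORA22B held 0, 0 and 1 reads in control and 4, 4 and 3 in I3, a ratio of 10.8 with a counting interval of 1.57 to 466 (adjusted p = 0.454, limma). The remaining members higher at the unadjusted p, named after their values were seen, were SNORA16B (2, 1 and 2 reads in control and 2, 5 and 4 in I3) and SNORA58 (0, 0 and 2 in control and 2, 2 and 4 in I3).

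In the other direction, SNORA74D held 4, 2 and 1 reads in control and 1, 1 and 0 in I3, and SNORD63, in HSPA9, held 1, 5 and 1 in control and 1, 1 and 0 in I3. For both, the separation of groups in FPKM rested on single reads whose worth differs slightly between libraries. SNORD11B, in an intron of the snoRNP protein gene NOP58, held 3, 4 and 6 reads in control and 5, 1 and 0 in I3, while its neighbour SNORD11 held 5, 7 and 2 in control and 3, 6 and 5 in I3. SNORA13, a guide for 18S, held 5, 4 and 3 reads in control and 2, 4 and 0 in I3. The log2 fold changes of SNORA74D, SNORD11B, SNORA71B, SNORA13 and SNORD63, the 5 with the smallest p among those below 0, were -0.87, -1.31, -0.22, -0.94 and -1.08, each with an adjusted p of 0.998 (limma).

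Summed over each class, levels of the groups lay close together. SNORD members summed to 11.5, 9.55 and 9.94 RPM in control and 11.7, 11.1 and 12.1 in I3, or 10.3 ± 1.03 and 11.6 ± 0.518 (SD, n = 3). SNORA members summed to 11.8, 10.9 and 10.4 RPM in control and 12.8, 12.9 and 11.1 in I3, or 11.0 ± 0.727 and 12.3 ± 0.999 (SD, n = 3). Without SNORA73B the SNORA means were 9.17 ± 0.598 and 9.69 ± 1.02, and the log2 ratio of I3 to control moved from 0.15 to 0.08. For each class the groups overlapped. The 4 SCARNA members summed to 0.340 ± 0.0585 RPM in control and 0.464 ± 0.159 in I3 (SD, n = 3), a total of 43 reads. Of the SCARNA members, SCARNA1 held 27 reads and SCARNA13 held 0, 0 and 3 in control and 0, 3 and 1 in I3.

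**Figure D3:**
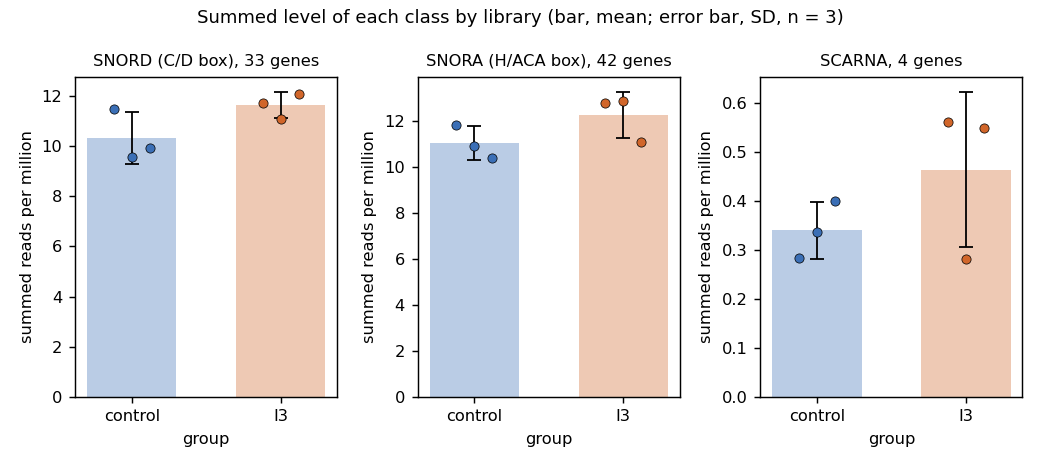
Summed RPM of the 33 SNORD, 42 SNORA and 4 SCARNA members in each library (points), with the group mean (bar) and SD (error bar, n = 3 libraries). In the SNORD and SNORA panels the means are 10.3 against 11.6 and 11.0 against 12.3, and points of the groups overlap in all 3 panels.

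The members' hosts were also compared. A host on the same strand was found for 76 members, in 66 genes, of which 58 members lay in protein-coding hosts. Ribosomal protein genes held 11 members and SNHG genes held 11, and 7 hosts held more than 1 member (17 members in all). Of 65 hosts tested, 0 passed the adjusted p, none passed a fold of 0.58 (limma), and 1, PABPC4, which holds SNORA55, had an unadjusted p under 0.05, beside 4.93% of all genes tested. Host log2 fold changes ran from -0.23 to 0.18 with a median of 0.03. DANCR, host of SNORA26, was at 232 ± 18.2 FPKM in control and 229 ± 18.9 FPKM in I3, and RCC1, host of SNORA73B, at 46.4 ± 4.83 and 45.2 ± 2.35 FPKM (SD, n = 3). The host of SNORD101, RPS12, was at 1234 ± 85.9 and 1299 ± 95.5 FPKM (SD, n = 3).

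Members and hosts differed widely in level. Per length, the median member was at 0.0463 of its host's FPKM, and 3 members (SNORD104, SNORD93 and SNORD12B) were above their host. SNORD104 stood at 6.56 FPKM while its host SNHG25 was at 0.340 ± 0.235 FPKM in control and listed at 0 in all 3 I3 libraries. Across the 76 members, level and host level had a Spearman rho of 0.17, a description over genes that share libraries. Among intronic members, the distance to the downstream exon of the host had a median of 266 nt for 30 SNORD genes and 803.5 nt for 40 SNORA genes.

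**Figure D4:**
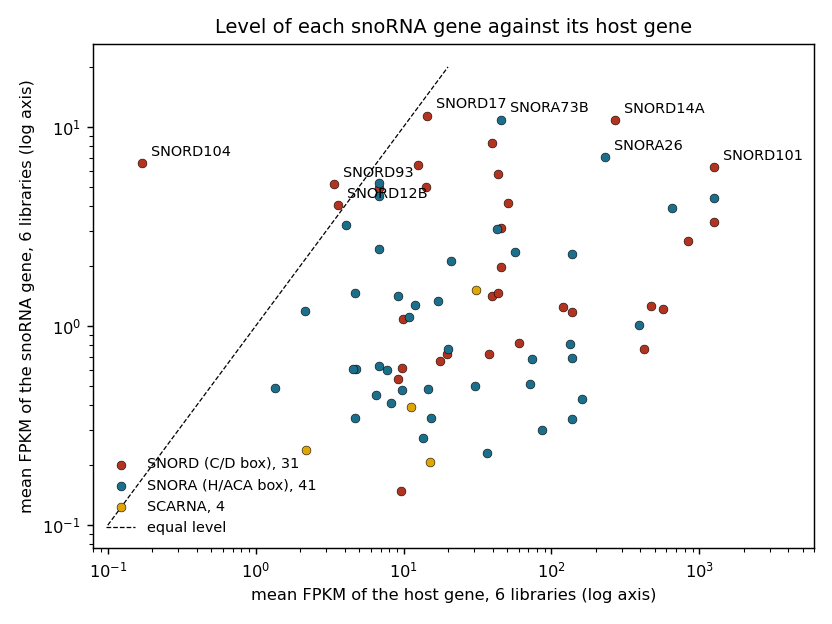
Mean FPKM over 6 libraries of each member (y axis, log scale) against that of its host gene (x axis, log scale) for 76 members, by class, with a dashed line at equal level. Most points lie below the line, SNORD104 is far above it, and members in RPS12 (1266 FPKM) are no higher than SNORD17 in SNX5 (14.5 FPKM).

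Whether a snoRNA gene was a member went with its position. Of the 450 annotated genes, 153 overlap an exon of another gene on the same strand, and 2 of these (1.31%) were members, SNORD63 and SNORA53. Of the 297 that overlap none, 77 (25.9%) were members. Where the host was above 20 FPKM, 2 of 93 overlapping genes and 36 of 63 others (57.1%) were members. Where the host was at 0 to 20 FPKM, these were 0 of 54 and 38 of 161 (23.6%). SNORD14D in HSPA8, SNORD35A in RPL13A, SNORD42A in RPL23A and SNORA73A in RCC1 overlap such exons and had no row used here, whereas SNORA73B, in the same host as SNORA73A but free of exons, held 237 reads. The part of the counting rule for overlapping genes in this was not tested.

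**Figure D5:**
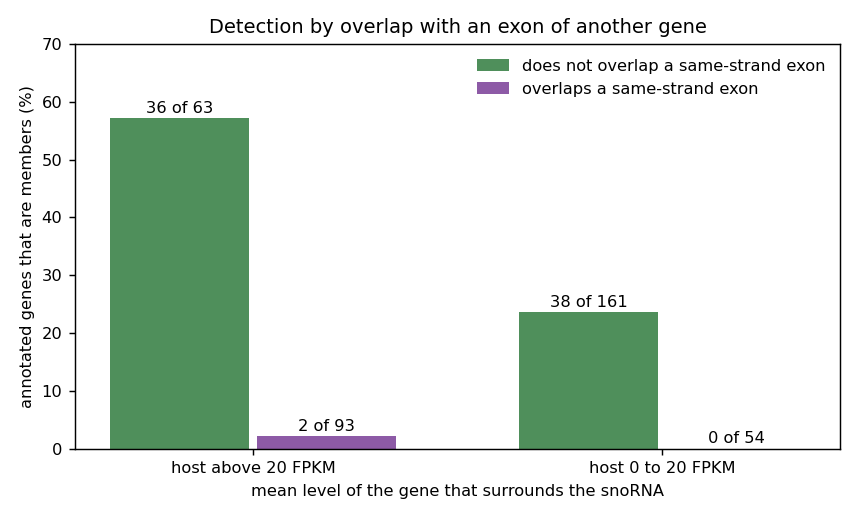
Percent of annotated snoRNA and scaRNA genes that were members (y axis), for genes whose host was above 20 FPKM or at 0 to 20 FPKM (x axis), and by overlap with a same-strand exon of another gene (colours, counts above bars). Bars reach 57.1% and 23.6% without overlap and 2.15% and 0% with it.

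Among the well known genes, SNORD3A, the gene of U3, held 5, 3 and 2 reads in control and 4, 2 and 2 in I3. These reads were counted over an annotated gene of 699 nt, longer than the 217 nt of U3, and cannot be placed on U3 itself. SCARNA7 held 1 read in all, and SCARNA5 and SCARNA6 were listed at 0 in every library. SNORD118 (U8), SNORD13 (U13), SCARNA2, SCARNA9, SCARNA10, SCARNA12 and SCARNA17 had no row used here. The same held for the 48 copies of SNORD115 and the 30 copies of SNORD116 in the imprinted Prader-Willi region, whose host SNHG14 was at 0.00152 FPKM.

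Protein genes of the snoRNPs were measured at far greater depth. The list held 28 genes, AES and DDX21 among them, and the rest were core, U3, Cajal body, assembly, transport and trimming factors. Of these, 0 passed the adjusted p in either direction (limma, also with voom), and 1, AES, had an unadjusted p under 0.05 (4.93% of all genes tested did). FBL, the methyltransferase, was at 162 ± 14.8 FPKM in control and 163 ± 6.28 FPKM in I3 (SD, n = 3). Its C/D partners NOP56, NOP58 and SNU13 were at 39.9, 45.5 and 55.8 FPKM in control and 38.2, 45.3 and 56.3 in I3. DKC1, the pseudouridine synthase, was at 54.9 ± 3.28 and 53.1 ± 1.25 FPKM (SD, n = 3). Its H/ACA partners NHP2, NOP10 and GAR1 were at 46.3, 57.2 and 21.02 FPKM in control and 46.8, 56.7 and 21.1 in I3. The log2 fold changes of these 8 genes ran from -0.06 to 0.01. The smallest p-values of the list belonged to AES, at 22.5 ± 2.21 and 18.0 ± 2.44 FPKM (SD, n = 3, adjusted p = 0.963, limma), and to ZNHIT3, an assembly factor, at 4.06 ± 0.206 and 3.64 ± 0.302 FPKM (SD, n = 3, adjusted p = 0.998, limma).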

How the data were processed

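RNA of 3 control and 3 I3-treated Kasumi-1 samples was sequenced. The authors deposited FPKM per gene; the processing notes name Trimmomatic, HISAT2, Cufflinks, HTSeq and hg38, without versions, while their gene annotation was not stated. GENCODE 29 was used here for names, positions and exon lengths. Reads were rebuilt from FPKM, within 0.1 of a whole number for 95.8% of genes above 0. limma 3.58.1 in R 4.3.3 (lmFit, eBayes with trend) was fitted to log2(FPKM + 0.5) of genes averaging 0.5 FPKM or more, so fold changes of low genes are understated. Calls needed both a Benjamini-Hochberg adjusted p under 0.05 and 0.58 or more of log2 change in either direction. Alternatives covered the pseudocount, filter, scaling, GC content, variance model, voom, replicate block and single libraries. The members and lists were chosen with earlier results of these data known. Named members were the 10 with the most reads, the 5 with the smallest p in each direction, those with at least 20 reads and groups apart, and a fixed list of well known genes. From the snoRNP list the core proteins and the 2 smallest p were named. A further cell type marker is not reported here.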

Additional observations from a re-analysis of the deposited data

How the results depend on the processing

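Under 19 alternatives, no member passed the adjusted p except SNORD101 without control 1 (0 to 1 higher over the fits that each left out a library). The 7 members higher at the unadjusted p became 3 with a minimum of 1 FPKM, 2 with 5 FPKM, 1 with a minimum of 10 reads and 1 with voom, where fewer members were tested (44, 12, 10 and 10), and 5 to 8 when a library was left out. The 0 lower became 1 with median-of-ratios scaling, 1 with quantile scaling, and 1 to 4 when a library was left out (4 without I3 1, 3 without control 3). Replicate numbers gave correlations of 0.06, 0.15 and -0.02 between same-numbered libraries, while control 1 correlated best with I3 3 (0.10). These values do not settle whether same-numbered libraries were paired. With the replicate block 3 members were lower at the unadjusted p and none passed the adjusted p. The share of all genes passing, at the adjusted or the unadjusted p, is given only for the main fit. The counts of members in the refits thus have no such share beside them and are a description. The median log2 fold change was 0.27 with TPM and 0.16 with no minimum FPKM, where all 79 members were tested. It was 0.02 with a minimum of 1 FPKM (44 members), 0.15 with 5 FPKM (12 members) and 0.07 with a minimum of 10 reads (10 members). When a library was left out it was 0.05 (without control 3) to 0.19 (without control 1).

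Of 18 named members, 11 kept their sign under every alternative that could give a value, and 15 of 310 refits reversed a sign, all by leaving out a library. The log2 fold change then ran from -0.029 to 0.18 for SNORD17, from -0.23 to 0.55 for SNORD14A, from -0.057 to 0.16 for SNORD94, from -0.078 to 0.55 for SNORD62B, from -0.61 to 0.075 for SNORA11F, from -0.94 to 0.18 for SNORA71C and from -0.17 to 0.54 for SNORA33. The cause was not tested. The adjusted p of SNORD88A ranged from 0.0887 (TPM) to 0.769. There were 35 members if reads were required in all 6 libraries and 52 with at least 10 reads. The median member held 13 reads in all.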
